A study of Homo sapiens with 6 samples.

Results

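The genes described here are 10 members of the BCL2 family, MCL1, BCL2L1, BCL2L2, BAK1, BAX, PMAIP1, BBC3, BCL2L11, BID and BMF. They were taken by gene symbol from an expression table of 60589 genes, where each of the 10 has 1 entry. RNA was sequenced from SNU449 cells, a line grown from a human hepatocellular carcinoma, at day 3. One group carried an siRNA against MAD2L1 (siMAD2L1, 3 libraries) and the other a control siRNA (siControl, 3 libraries), and no other agent or allele is named for either. MAD2L1 encodes a spindle checkpoint protein that delays anaphase, and the comparison asks what changes in liver cancer cells when it is knocked down. Under treatment, MAD2L1 is entered for siMAD2L1 replicate 1 alone and MAD2L2 and MAD2L3 for replicates 2 and 3, although all 3 titles name MAD2L1. Nothing in the labels says that the replicates are separate cultures, so p-values measure only the spread between these libraries. Values are TPM (transcript abundance corrected for length and scaled to a fixed library total), and the number of reads behind them is unknown.

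BCL2 family proteins decide whether the outer membrane of the mitochondrion is opened during apoptosis. The effectors BAK1 and BAX form the pores that release cytochrome c, which then activates caspases. Anti-apoptotic members such as MCL1, BCL2L1 (BCL-XL) and BCL2L2 (BCL-W) hold the effectors in check, and the BH3-only proteins bind and neutralise these guardians or activate the effectors directly. MCL1 protein is short-lived and is known to be degraded when mitosis is prolonged, and NOXA, the product of PMAIP1, binds MCL1 in particular. RNA levels say nothing of the amount of protein, and the table gives 1 value per gene, so splice forms with opposed functions, as known for BCL2L1 and MCL1, were summed.

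In siMAD2L1 cells MCL1 rose 2.37-fold and BAK1 1.44-fold, while PMAIP1 fell to 44.4% of its siControl mean. The other 7 genes did not pass the test. In bulk RNA a change in the share of cells with a transcript and a change in its amount per cell cannot be told apart. All 10 genes had a mean of at least 1 TPM over the 6 libraries and were tested among 14790 genes with limma on log2(TPM + 1), where a call needs a Benjamini-Hochberg adjusted p under 0.05. Of the 10 genes 2 were called higher, against 3.55% of all genes tested, and 1 was called lower, against 6.23%; in either direction 9.78% of all genes were called. The siMAD2L1 and siControl libraries did not overlap for 5 of the 10, MCL1, BAK1, BBC3, BAX and PMAIP1, while 32.8% of all genes tested showed no overlap. Of these 5, MCL1, BAK1 and BBC3 were higher in siMAD2L1, against 11.3% of all genes, and BAX and PMAIP1 lower, against 21.5%. The median log2 fold change of the 10 was 0.13, beside -0.08 over all genes tested. Only the call of MCL1 held with each library left out in turn.

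**Figure D1:**
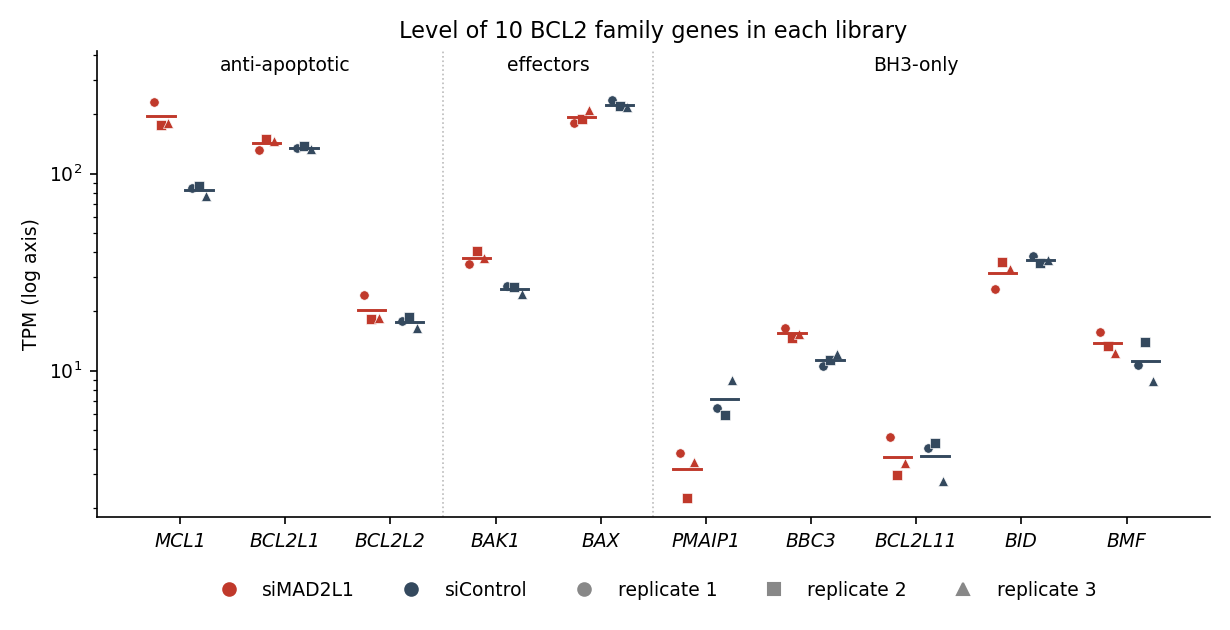
TPM on a log axis for the 10 genes in every library, with siMAD2L1 left of siControl, a marker shape per replicate number and a line at each group mean. MCL1 lay at 176 TPM or more in siMAD2L1 and at 86.9 TPM or less in siControl, and PMAIP1 at 3.82 TPM or less in siMAD2L1 and at 5.97 TPM or more in siControl.

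The knockdown was read from MAD2L1 itself, which measured 4.47, 0.795 and 2.40 TPM in siMAD2L1 replicates 1, 2 and 3 and 14.5, 13.7 and 13.9 TPM in siControl (limma adjusted p = 0.0105). Without siControl replicate 1, 2 or 3 that adjusted p was 0.0597, 0.0547 or 0.0572. MAD2L2, the gene entered under treatment for siMAD2L1 replicate 2, measured 123, 154 and 138 TPM in siMAD2L1 replicates 1, 2 and 3. In siControl MAD2L2 measured 150, 146 and 138 TPM (log2 fold change -0.07, limma adjusted p = 0.698). Which gene each siRNA was directed against was not tested beyond these values. Transcripts of the mitochondrial genome took 9.84% ± 0.896 of all TPM in siMAD2L1 and 15.3% ± 0.0603 in siControl (SD, n = 3 each). Since TPM adds up to a fixed total, a smaller mitochondrial share leaves more for every other gene. Rescaling without these genes and the 20 most abundant together kept the calls of MCL1, BAK1 and PMAIP1; the part of the mitochondrial share by itself was not tested. Of 6 hepatocyte markers 2 were tested, AFP and SERPINA1, and neither passed; the 6 summed to at most 6.21 TPM in siMAD2L1 and at most 4.94 TPM in siControl, with TTR listed at 0 in all libraries and ALB at 0.451 TPM or less. The epithelial keratins KRT8 and KRT18 fell (log2 fold changes -0.44 and -0.55, adjusted p = 0.0101 and 0.00661; KRT8 lost its call without siControl replicate 1, at 0.0638). The other 3 tested genes of this marker list did not pass, the epithelial cadherin gene CDH1 (-0.38, adjusted p = 0.406) and the mesenchymal genes VIM (0.19, adjusted p = 0.114) and CDH2 (-0.11, adjusted p = 0.599), and EPCAM had a mean under the filter. Of 6 leukocyte and endothelial markers only CD68, a lysosomal protein that other cells also make, was tested, with 125 to 144 TPM in siMAD2L1 and 63.1 to 69.8 TPM in siControl (1.05, adjusted p = 0.00114). CD3E was listed at 0 in all libraries and PTPRC at 0.060 TPM or less. The part of these markers in the results below was not tested.

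The order of the 10 genes by TPM differed between the groups at the top. In siMAD2L1 MCL1 came first at 195 ± 29.6 TPM and BAX second at 193 ± 15.0 TPM (SD, n = 3), and their libraries overlapped, followed by BCL2L1 at 143 ± 9.50 TPM. In siControl BAX came first at 224 ± 10.2 TPM, then BCL2L1 at 135 ± 2.72 TPM and MCL1 at 82.6 ± 5.42 TPM, with no overlap between neighbours. Below these lay BAK1 and BID, which overlapped in siMAD2L1, with BAK1 ahead, and did not overlap in siControl, where BID was ahead. BCL2L2, BBC3 and BMF held ranks 6, 7 and 8 in both groups, and BBC3 and BMF overlapped in each. At the bottom BCL2L11 and PMAIP1 overlapped in siMAD2L1, while in siControl PMAIP1 stood above BCL2L11 without overlap.

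MCL1 (ENSG00000143384; chromosome 1, 150574551 to 150579738, minus strand, GRCh38) had the largest response of the 10. It measured 230, 176 and 181 TPM in siMAD2L1 replicates 1, 2 and 3, against 84.4, 86.9 and 76.5 TPM in siControl. All siMAD2L1 libraries were above all siControl libraries, and replicate 1, the library with the most MAD2L1 left of the siMAD2L1 group, was the highest. The log2 fold change was 1.22 (SE 0.115, 95% confidence interval 0.96 to 1.49, limma adjusted p = 0.00166), and 88 of the genes tested had a larger one. The adjusted p lay between 0.00134 and 0.0173 with a library left out in turn. Without siMAD2L1 replicate 1 the log2 fold change was 1.10, and with that library as the only one of siMAD2L1 it was 1.47, a value with no replicate check.

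BCL2L1 (chromosome 20), which encodes BCL-XL and its pro-apoptotic splice form, measured 132, 150 and 146 TPM in siMAD2L1 and 134, 138 and 133 TPM in siControl. The groups overlapped, and the log2 fold change of 0.07 had a 95% interval of -0.10 to 0.25 (limma adjusted p = 0.589), so an effect the size of that on MCL1 lay outside it. BCL2L2 (chromosome 14) measured 24.2, 18.2 and 18.5 TPM in siMAD2L1 and 17.9, 18.7 and 16.5 TPM in siControl, with replicate 1 of siMAD2L1 above the rest and the other libraries intermixed (0.18, 95% interval -0.14 to 0.49, adjusted p = 0.451). BCL2L2 shares sequence with the readthrough gene BCL2L2-PABPN1, listed at 3.33 to 4.60 TPM in siMAD2L1 and at 4.05 to 5.83 TPM in siControl, so its own value depends on how reads were split between them. It also overlaps PPP1R3E (6.15 to 8.96 TPM in siMAD2L1 and 9.08 to 10.4 TPM in siControl) and the end of HOMEZ on the other strand.

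Summed over MCL1, BCL2L1 and BCL2L2, the guardians reached 386, 344 and 346 TPM in siMAD2L1, against 237, 244 and 226 TPM in siControl. MCL1 made up 54.4% ± 4.53 of this sum in siMAD2L1 and 35.0% ± 1.04 in siControl (SD, n = 3 each), and BCL2L1 made up 40.0% ± 5.09 in siMAD2L1 and 57.4% ± 1.24 in siControl. The ratio of MCL1 to BCL2L1 within a library was 1.74, 1.17 and 1.24 in siMAD2L1 and 0.628, 0.628 and 0.575 in siControl. MCL1 was thus the more abundant of the pair in each siMAD2L1 library and the less abundant in each siControl library. The log2 ratio differed by 1.16 (siMAD2L1 minus siControl, with exact two-sided permutation p = 0.1, the smallest that 3 libraries against 3 can give). BCL2L1 lay at 132 to 150 TPM in all libraries, below every siMAD2L1 value of MCL1 and above every siControl value. The lack of overlap and this p-value therefore followed from the separation of MCL1 and are no separate result.

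**Figure D2:**
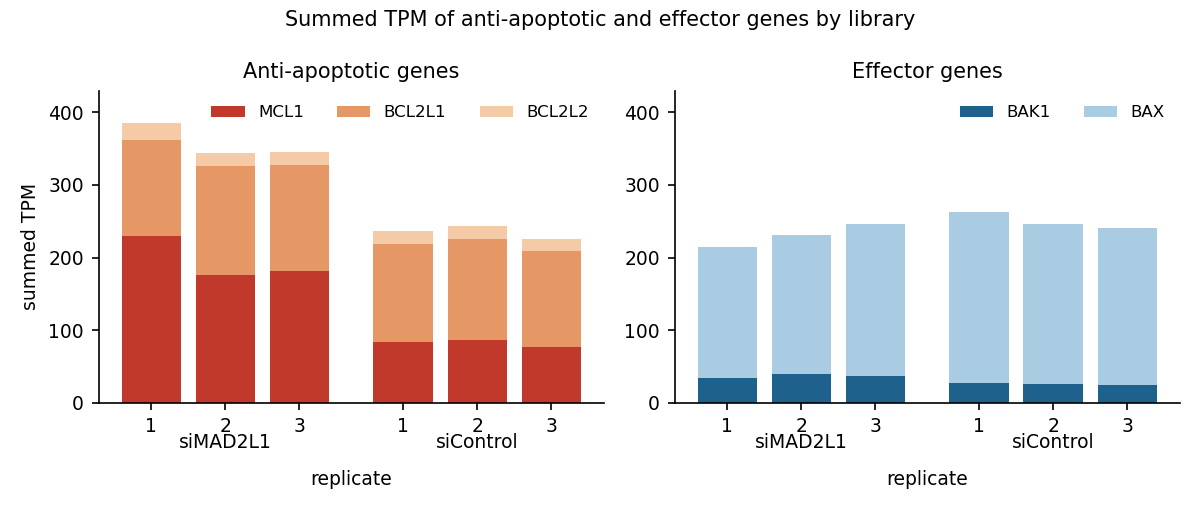
Stacked bars of TPM in each library, with siMAD2L1 left of siControl, for the anti-apoptotic genes (left) and the effector genes (right). The anti-apoptotic sum is 344 to 386 TPM in siMAD2L1 and 226 to 244 TPM in siControl, and the effector sum is 214 to 247 TPM in siMAD2L1 and 241 to 262 TPM in siControl. Effector genes here are BAK1 and BAX, without the effector-like BOK.

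Of the effectors, BAK1 rose and BAX did not pass, with opposite signs. BAK1 (ENSG00000030110; chromosome 6, 33572547 to 33580293, minus strand, GRCh38), whose product sits in the outer mitochondrial membrane and is held there by MCL1 and BCL-XL, measured 34.6, 40.3 and 37.3 TPM in siMAD2L1 and 27.0, 26.6 and 24.4 TPM in siControl. The groups did not overlap, and the log2 fold change was 0.51 (SE 0.0990, 95% interval 0.28 to 0.74, limma adjusted p = 0.0197). The call was lost without siMAD2L1 replicate 2 or 3 (adjusted p = 0.0620 and 0.0714) and without siControl replicate 1, 2 or 3 (0.0788, 0.0650 and 0.0915), at log2 fold changes of 0.45 to 0.53. It held without siMAD2L1 replicate 1 (0.56, adjusted p = 0.0104).

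BAX (ENSG00000087088; chromosome 19, 48954815 to 48961798, plus strand, GRCh38), an effector that moves from the cytosol to the mitochondrion when activated, measured 180, 190 and 209 TPM in siMAD2L1 and 235, 219 and 216 TPM in siControl. Each siMAD2L1 library was below each siControl library, but the gene did not pass (log2 fold change -0.21, SE 0.0808, 95% interval -0.40 to -0.03, limma adjusted p = 0.141). The interval is not adjusted for the number of genes tested. The ratio of BAK1 to BAX was 0.193, 0.212 and 0.178 in siMAD2L1 and 0.115, 0.121 and 0.113 in siControl, a difference of 0.74 on the log2 scale with no overlap (exact two-sided permutation p = 0.1, the smallest possible here). The lack of overlap and this p-value followed from BAK1 and BAX, each separated between the groups and in opposite directions, and are no separate result. Because BAX is so much more abundant, the effector sum was 231 ± 16.1 TPM in siMAD2L1 and 250 ± 11.2 TPM in siControl (SD, n = 3 each), and these sums overlapped.

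The promoters of this pair are printed because BAK1 was called and BAX, the other effector gene, was not. Promoter windows run from 250 bases before to 50 bases after a RefSeq transcript start (GRCh38.p14), and 8 of the 10 genes, all but MCL1 and BCL2L2, had an entry. They were searched on both strands for TGACG (the half-site of ATF and CREB factors), CACGTG (the E-box bound by MYC and USF proteins), GGGCGG (the GC box of SP1) and CCAAT (the box bound by NF-Y). In the BAX window the E-box is in capitals, and in the BAK1 window the CCAAT box, which reads ATTGG on the strand shown.
BAX (chr19:48954625-48954924, plus strand): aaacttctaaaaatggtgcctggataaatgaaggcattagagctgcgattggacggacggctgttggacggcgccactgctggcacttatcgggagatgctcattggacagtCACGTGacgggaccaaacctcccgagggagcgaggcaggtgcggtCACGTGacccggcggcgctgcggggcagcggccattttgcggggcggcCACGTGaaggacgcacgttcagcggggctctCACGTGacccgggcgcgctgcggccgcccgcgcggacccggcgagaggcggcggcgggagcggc
BAK1 (chr6:33580227-33580526, minus strand): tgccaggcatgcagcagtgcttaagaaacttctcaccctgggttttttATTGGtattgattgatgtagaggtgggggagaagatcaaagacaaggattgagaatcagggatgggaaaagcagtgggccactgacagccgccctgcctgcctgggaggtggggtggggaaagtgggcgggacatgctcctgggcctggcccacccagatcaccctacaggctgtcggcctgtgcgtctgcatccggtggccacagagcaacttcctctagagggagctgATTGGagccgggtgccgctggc
The BAX window held 4 E-boxes, 1 ATF/CREB half-site, 2 GC boxes and 2 CCAAT boxes, and the BAK1 window 2 GC boxes and 2 CCAAT boxes with neither of the other motifs. In the BAX window a stretch of letters can count for more than 1 motif, as where an E-box runs into an ATF/CREB half-site. Of 34796 distinct promoter windows of this length, 7.20% held at least 1 E-box and 0.092% held 3 or more. At least 1 CCAAT box was found in 34.6%, a GC box in 44.9% and an ATF/CREB half-site in 24.5%. A match to these letters is a description of the window and shows no binding.

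Among the BH3-only genes, PMAIP1 (ENSG00000141682; chromosome 18, 59899948 to 59904306, plus strand, GRCh38) fell. It encodes NOXA, a small protein that occupies the groove of MCL1 and promotes its breakdown, and it is a known target of the stress factor ATF4. It measured 3.82, 2.25 and 3.43 TPM in siMAD2L1 and 6.49, 5.97 and 8.95 TPM in siControl, with no overlap; siControl replicate 3 was the highest and siMAD2L1 replicate 2 the lowest. The log2 fold change was -0.97 (SE 0.218, 95% interval -1.47 to -0.46, limma adjusted p = 0.0326), a scale that understates changes at such low TPM. The call was lost without siMAD2L1 replicate 2 or 3 (adjusted p = 0.0767 and 0.0794), without siControl replicate 1, 2 or 3 (0.105, 0.0758 and 0.128) and without the filter on low TPM (0.0990). It held without siMAD2L1 replicate 1 (-1.08, adjusted p = 0.0224).

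The PMAIP1 promoter is shown because this was the only gene of the 10 to be called lower, with the ATF/CREB half-site, which reads CGTCA on this strand, in capitals.
PMAIP1 (chr18:59899746-59900045, plus strand): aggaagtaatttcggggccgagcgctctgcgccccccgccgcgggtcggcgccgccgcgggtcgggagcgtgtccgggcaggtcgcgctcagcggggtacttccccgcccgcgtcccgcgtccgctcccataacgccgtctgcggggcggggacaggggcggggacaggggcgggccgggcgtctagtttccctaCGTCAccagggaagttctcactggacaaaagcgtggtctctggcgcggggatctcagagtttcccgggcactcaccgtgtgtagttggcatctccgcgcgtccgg
The half-site begins at base 196 of the window, before the transcript start. The PMAIP1 window also held 4 GC boxes, no E-box and no CCAAT box. Of the 34796 distinct promoter windows, 15.8% held 3 or more GC boxes. Of the 14 windows of the 8 genes, those with an ATF/CREB half-site belonged to BCL2L1, BAX, PMAIP1 and BMF. In these data ATF4 measured 447 to 476 TPM in siMAD2L1 and 429 to 464 TPM in siControl (log2 fold change 0.04, limma adjusted p = 0.713).

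MCL1 and PMAIP1 moved in opposite directions, so the ratio of MCL1 to PMAIP1 showed the widest separation of the ratios computed. It was 60.1, 78.0 and 52.8 in siMAD2L1 and 13.0, 14.6 and 8.55 in siControl, a 5.35-fold difference between the geometric means. The lowest siMAD2L1 library was above the highest siControl library (exact two-sided permutation p = 0.1, the smallest possible). That outcome was fixed beforehand, since both genes were already separated between the groups in opposite directions, so it is no separate result. With 1 TPM added to both genes the log2 difference was 2.19 in place of 2.42.

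**Figure D3:**
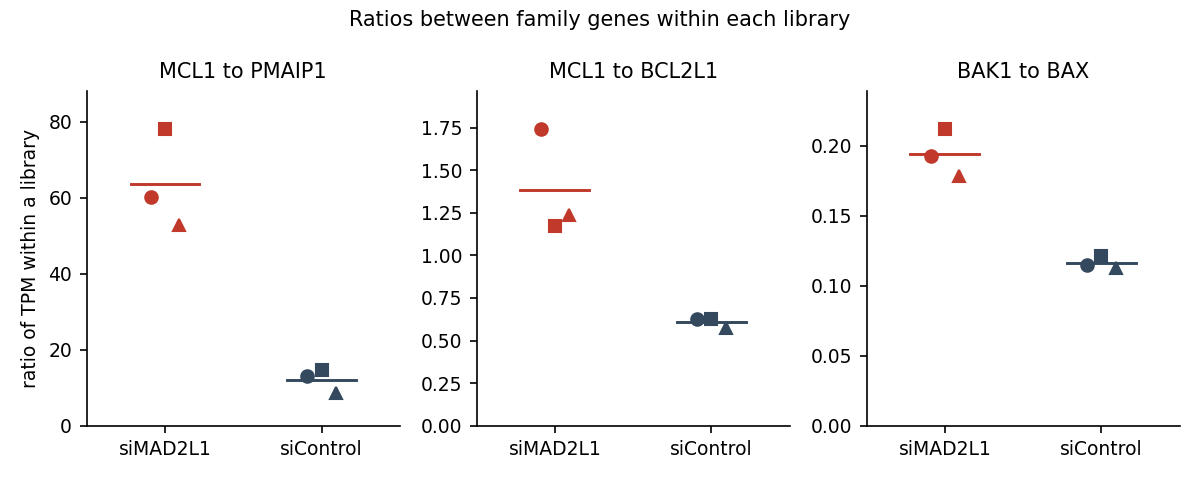
Ratio of TPM within each library for MCL1 to PMAIP1, MCL1 to BCL2L1 and BAK1 to BAX, with siMAD2L1 left of siControl, marker shapes for replicates 1 to 3 (circle, square, triangle) and a line at each mean. In all 3 panels the siMAD2L1 libraries lie above the siControl libraries, with means of 63.6 against 12.0, 1.39 against 0.611 and 0.194 against 0.116. For MCL1 to PMAIP1 and BAK1 to BAX this follows from the separation of the single genes in opposite directions. For MCL1 to BCL2L1 it follows from MCL1, which lay above every BCL2L1 value in siMAD2L1 and below every one in siControl.

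BBC3 (chromosome 19), which encodes PUMA, a BH3-only protein that binds all the guardians, measured 16.5, 14.7 and 15.4 TPM in siMAD2L1 and 10.5, 11.4 and 12.1 TPM in siControl. The groups did not overlap, but the gene missed the threshold (log2 fold change 0.42, SE 0.116, 95% interval 0.15 to 0.69, limma adjusted p = 0.0595). Its call depended on the settings. The limma adjusted p was 0.0366 after upper-quartile scaling and 0.0300 after quantile normalization. With the scaling unchanged it was 0.0498 with the filter at a mean of 5 TPM and 0.00705 with library weights. It was 0.0744 after rescaling without mitochondrial and the 20 most abundant genes and 0.0635 after rescaling over protein-coding genes. BBC3 did not pass with any library left out (adjusted p 0.0597 to 0.217).

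The other BH3-only genes overlapped between the groups and did not pass. BID, whose product is cut by caspase-8 and then activates BAK1 and BAX, measured 25.9, 35.4 and 32.9 TPM in siMAD2L1 and 38.0, 35.1 and 36.4 TPM in siControl (-0.22, 95% interval -0.51 to 0.07, limma adjusted p = 0.318), with siMAD2L1 replicate 1 below the rest. BMF, a BH3-only protein linked to loss of cell attachment, measured 15.6, 13.3 and 12.3 TPM in siMAD2L1 and 10.7, 14.0 and 8.88 TPM in siControl (0.29, 95% interval -0.12 to 0.70, adjusted p = 0.349). BCL2L11, which encodes BIM, an activator of both effectors, measured 4.58, 2.94 and 3.38 TPM in siMAD2L1 and 4.06, 4.29 and 2.77 TPM in siControl (-0.02, 95% interval -0.52 to 0.48, adjusted p = 0.963). The sign of BCL2L11 turned under quantile normalization, upper-quartile scaling and removal of the transcript-length trend. Summed TPM of the 5 BH3-only genes described here was 66.4 to 68.6 in siMAD2L1 and 69.1 to 70.7 in siControl. BID alone made up 46.5% ± 6.68 of this sum in siMAD2L1 and 52.2% ± 2.45 in siControl (SD, n = 3 each). The sum is not the whole BH3-only pool, since it leaves out BAD, BIK and HRK. BAD measured 83.6 to 107 TPM in siMAD2L1 and 104 to 113 TPM in siControl, above this sum in every library. It did not pass (-0.16, limma adjusted p = 0.393).

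**Figure D4:**
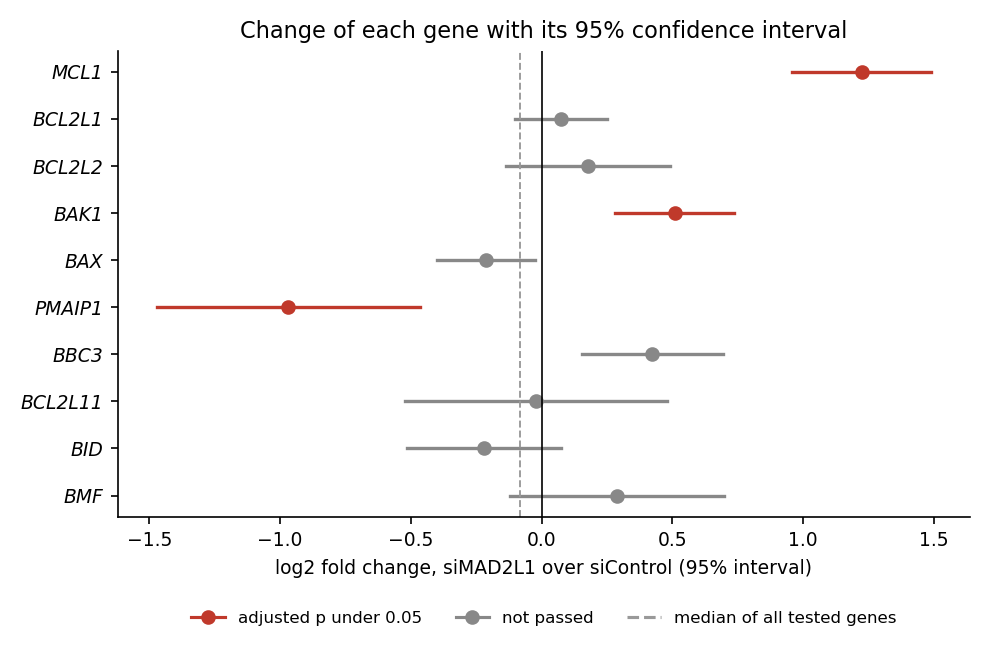
Log2 fold change of each gene, siMAD2L1 over siControl, with its 95% confidence interval from limma; red marks an adjusted p under 0.05 and the dashed line the median of all genes tested (-0.08). MCL1 and BAK1 lie to the right and PMAIP1 to the left, and the intervals of BBC3 and BAX exclude 0 before adjustment for multiple testing.

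Libraries differed within siMAD2L1. Relative to the siControl mean of log2(TPM + 1), replicate 1 had the largest positive difference of MCL1 (1.47, beside 1.08 and 1.12 in replicates 2 and 3), of BCL2L2 (0.43, beside 0.04 and 0.06) and of BBC3 (0.51, beside 0.35 and 0.41). Replicate 1 was also the highest of the group for BMF and BCL2L11 and the lowest for BCL2L1, BAX and BID. Replicate 2, with the least MAD2L1, had the widest difference of BAK1 (0.62, beside 0.40 and 0.51 in replicates 1 and 3) and of PMAIP1 (-1.31, beside -0.74 and -0.86). Within siControl, replicate 3 had the lowest MCL1, BCL2L1, BCL2L2, BAK1, BAX, BCL2L11 and BMF and the highest PMAIP1 and BBC3.

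Of 11 further BCL2 family genes 7 were tested and 1 passed, near the 9.78% called over all genes tested. BOK, an effector-like protein that can act without BAK1 and BAX, measured 105, 110 and 107 TPM in siMAD2L1 and 82.5, 92.8 and 82.0 TPM in siControl (log2 fold change 0.32, limma adjusted p = 0.0457). It was more abundant than BAK1 in every library, and its call held only without siMAD2L1 replicate 1, with adjusted p of 0.0569 to 0.179 in the fits that left out any other library. BCL2A1, a guardian induced by NF-kB, measured 2.30, 2.64 and 3.08 TPM in siMAD2L1 and 1.04, 0.714 and 1.55 TPM in siControl without overlap and did not pass (0.82, adjusted p = 0.0637). BCL2 itself had a mean under the filter, with 0.673 ± 0.0362 TPM in siMAD2L1 and 1.00 ± 0.222 TPM in siControl (SD, n = 3 each), and BCL2L10 was listed at 0 in all libraries. The median log2 fold change of the 7 was -0.09.

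Of 12 genes that act at or after the opening of the mitochondrion, 2 rose and 1 fell, with a median log2 fold change of 0.08 (3.55% of all genes tested were called higher and 6.23% lower, with a median of -0.08). VDAC2, a channel of the outer membrane that binds BAK1, rose (0.39; 384 ± 28.0 TPM in siMAD2L1 and 293 ± 12.5 TPM in siControl; SD, n = 3 each; limma adjusted p = 0.0214), as did VDAC1 (0.25, adjusted p = 0.0450). AIFM1, which encodes the mitochondrial flavoprotein AIF, fell (-0.55; 46.0 ± 1.23 TPM in siMAD2L1 and 68.1 ± 3.80 TPM in siControl; adjusted p = 0.00770). VDAC1 kept its call only without siMAD2L1 replicate 1 (adjusted p up to 0.155 in the other 5 fits, the highest without siControl replicate 1). VDAC2 lost its call without siMAD2L1 replicate 2 (0.0507) and without siControl replicate 1, 2 or 3 (0.0999, 0.0564 and 0.0963), and AIFM1 without siControl replicate 1 (0.0509). The caspase-activating APAF1, CASP9 and CYCS did not pass.

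Of 10 genes for turnover of MCL1 protein 9 were tested, and CDC20 was the only call, a share near the 9.78% over all genes tested; its product steers the anaphase promoting complex to its substrates. It measured 33.9, 38.9 and 47.2 TPM in siMAD2L1 and 86.2, 79.7 and 87.2 TPM in siControl (log2 fold change -1.07, limma adjusted p = 0.00344). HUWE1, the ubiquitin ligase known as MULE, measured 59.5 ± 2.04 TPM in siMAD2L1 and 72.5 ± 5.33 TPM in siControl (SD, n = 3 each; -0.28, adjusted p = 0.0811). The list median was -0.13. Of 14 transcription factors known to act on these genes 13 were tested, 2 rose and 2 fell, against 3.55% higher and 6.23% lower of all genes tested, and the median was 0.04. ATF3 (1.01, adjusted p = 0.00668) and EGR1 (0.93, adjusted p = 0.0142), both early stress response factors, rose, while E2F1 (-0.62, adjusted p = 0.0108) and TP73 (-0.78, adjusted p = 0.0407) fell. ATF3 kept its call with each library left out. EGR1 lost it without siControl replicate 1, 2 or 3 (0.0643, 0.0583 and 0.0672), E2F1 without siControl replicate 1 or 3 (0.0620 and 0.0624), and TP73 in 5 of 6 such fits (0.0765 to 0.134), all but that without siMAD2L1 replicate 1.

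The genes whose pattern over the 6 libraries was closest to those of MCL1, BAK1 and PMAIP1 were sought among 7351 candidates with a mean of at least 10 TPM. Likeness was the root-mean-square difference of log2(TPM + 1) after each gene was centred on its own mean. For MCL1 the nearest were IL6, a cytokine (0.0451), SOWAHC (0.0538) and UAP1, an enzyme of UDP-N-acetylglucosamine synthesis (0.0711), beside a spread of 0.626 for MCL1 itself on that scale. IL6 measured 237 TPM in siMAD2L1 and 96.0 TPM in siControl on average. For BAK1 they were VPS37C (0.0254), NR1D1 (0.0327) and ELOVL1 (0.0329), beside a spread of 0.265. For PMAIP1 they were PKP4 (0.124), SHISA2 (0.126) and the proliferation marker MKI67 (0.133), beside a spread of 0.537. These genes were picked for their likeness, so their own changes are not tests.

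**Figure D5:**
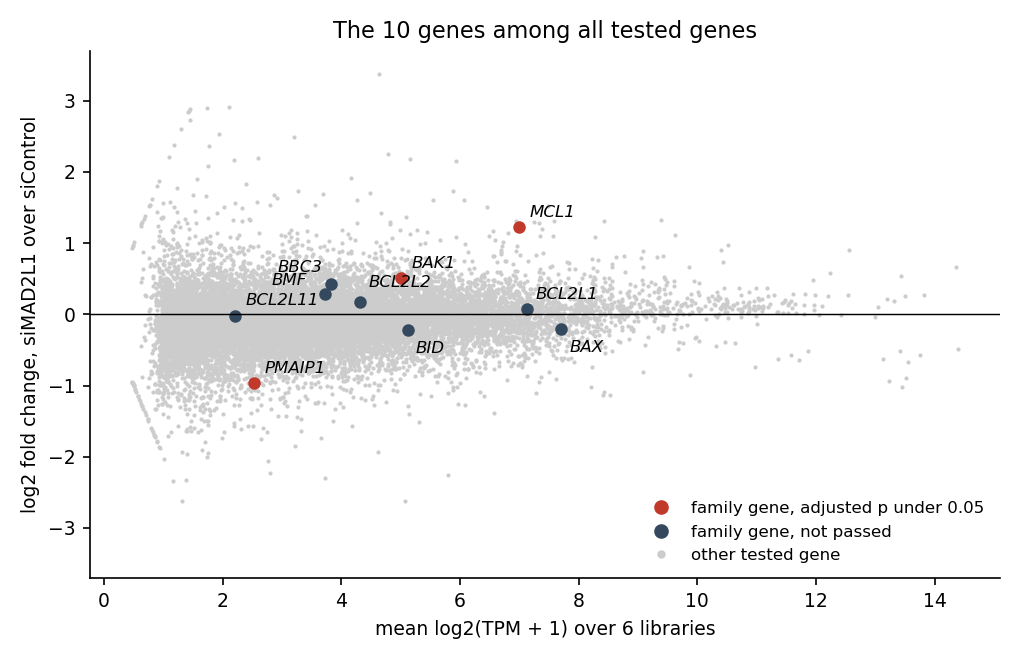
Log2 fold change, siMAD2L1 over siControl, against mean log2(TPM + 1) for all 14790 genes tested (grey), with the 10 BCL2 family genes marked and named. MCL1 (1.22) stands at the upper edge among genes of its abundance, PMAIP1 (-0.97) lies at low abundance where the scatter is wide, and the 7 genes that did not pass lie within the main cloud.

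Reads from overlapping genes could not be told apart where strand was not used, and the strand setting is not given in the sources used here. The antisense genes at BAK1 (GGNBP1) and BMF (BMF-AS1) were listed at 0 in every library, and the antisense gene ABALON at BCL2L1 at 0.074 TPM or less. ADAMTSL4-AS1, which meets the end of MCL1 on the same strand, was listed at 0.533 TPM or less. BCL2L11 lies within the antisense span of MIR4435-2HG, which measured 37.8 ± 9.55 TPM in siMAD2L1 and 39.5 ± 4.34 TPM in siControl (SD, n = 3 each) and is more abundant than BCL2L11, so the value of BCL2L11 is uncertain. BCL2L1, BAX, BBC3 and BMF carry an identifier joined to one from transcript assembly, so their extent may differ from the annotated gene.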

How the data were processed

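RNA from 6 SNU449 libraries was read from a table of TPM that the authors deposited, 1 column per library over 60589 genes, which sums to the same total in each. The submitters' processing notes name fastp, HISAT2, DESeq2 1.16.1 and the build hg38; these sources do not give the read counter, the annotation or the strand setting. Columns named for a negative control were matched by number to the siControl titles and those named for MAD to the siMAD2L1 titles. Depth is unknown, so no counting interval is given.

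Genes with a mean of at least 1 TPM were fitted as log2(TPM + 1) with limma 3.58.1 (R 4.3.3, intensity trend, no covariates), siMAD2L1 against siControl, with Benjamini-Hochberg adjustment over 14790 genes. The fit was tested on simulated data. Positions are from GENCODE 29 (GRCh38), promoters from RefSeq (GRCh38.p14). The 10 genes and the gene lists were chosen with earlier results of these data known. Text names all 10, each called gene of the other lists (or the 2 most abundant tested where none was called), and the 3 nearest patterns of MCL1, BAK1 and PMAIP1; genes outside this rule (such as ATF4, BCL2A1 and HUWE1) were named after their values were seen. Alternatives changed the pseudocount, filter, scaling, variance model, block, threshold and libraries. Plots used Python 3.11.15 and matplotlib 3.10.9.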

Additional observations from a re-analysis of the deposited data

How the results depend on the processing

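In 1 of 22 alternatives siMAD2L1 replicate 1 was the only siMAD2L1 library, so the spread came from siControl alone and siMAD2L1 was assumed to vary like it. In the other 21 MCL1 kept its direction and its call (log2 fold change 1.10 to 1.33, adjusted p 4.89e-05 to 0.0173). BAK1 and PMAIP1 kept their directions in all 22 and lost their calls in 8 each, the unreplicated one included. Correlations of deviations between same-numbered libraries were 0.0190, 0.00898 and 0.0631, beside -0.0525 to 0.0336 between differently numbered ones. All were small, and they do not settle whether the replicate numbers pair the libraries. With a replicate block 1 gene of the 10 was called higher and 1 lower, and the limma adjusted p of BAK1 was 0.0505. Over all genes 336 were then higher and 532 lower, against 525 and 921 without the block. At an adjusted p under 0.01, 1 of the 10 was higher and 0 lower (154 and 205 over all genes). With no filter 0 were lower (267 higher and 460 lower over all genes). With siMAD2L1 replicate 1 alone, which gives no replicate check of siMAD2L1, 1 was higher and 0 lower (555 lower over all genes), and BCL2L1 turned to -0.037. With a library left out, 1 to 2 of the 10 were higher and 0 to 1 lower, and over all genes 138 to 716 were higher and 188 to 1706 lower; 2 higher and 1 lower of the 10 held only without siMAD2L1 replicate 1. Library weights gave 1514 higher and 3346 lower, and limma without a trend 297 higher.

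Of the called genes 63.7% were lower, and 73.2% (1216 lower and 445 higher) after rescaling without mitochondrial and the 20 most abundant genes, 66.2% after rescaling over protein-coding genes, 68.8% with library weights or without a trend, 70.4% without siMAD2L1 replicate 1, 52.5% after upper-quartile scaling over tested genes, 50.5% after quantile normalization, 42.0% (423 lower) after upper-quartile scaling over all genes above 0 and 44.6% after removal of the transcript-length trend. Upper-quartile scaling over all genes above 0, the length trend and rescaling over protein-coding genes were chosen after seeing the data. BBC3 passed in 6 alternatives. BCL2L11 was reversed at 0.017 (upper quartile), 0.13 (quantile), 0.056 (upper quartile over all genes), 0.038 (length trend) and 0.26 (siMAD2L1 replicate 1 alone), and lay between -0.17 and 0.088 with a library left out; with the filter at 5 TPM it was not tested. The 3 ratios kept their sign in each alternative run, at 2.19 to 2.58, 0.98 to 1.27 and 0.67 to 0.80 (log2) with a library left out. For MCL1 to PMAIP1 and BAK1 to BAX the sign could not turn, as the genes of each pair were separated in opposite directions. Nor could it turn for MCL1 to BCL2L1, as MCL1 lay above every BCL2L1 value in siMAD2L1 and below every one in siControl. The cause of these shifts was not tested. Depth is unknown, so the counting error of each gene could not be given.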
